A study of Drosophila melanogaster with 2 samples.

Results

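The genes that divide the *Drosophila melanogaster* embryo into segments and give each segment its identity were taken from a list of 35 symbols, from the maternal gene *bcd* to the homeotic gene *Abd-B*. All 35 were found in the dm6 annotation, among 13945 protein-coding genes on the 6 assembled arms. For each gene the binding of a tagged zinc finger protein, CG31388, was described at the promoter, meaning a summit within 500 bp of any transcription start site (TSS) of the gene, in the rest of the gene body, and in the 20 kb outside the gene on each side, called the flank.

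The binding came from chromatin immunoprecipitation followed by sequencing (ChIP-seq) in a single group of 2 libraries, biological replicates 2 and 4, each the technical replicate 1 of its number. The embryos were whole, of both sexes and 0 to 16 hours old, and came from a transgenic fly line with a stable copy of CG31388 joined at its C-terminal end to green fluorescent protein (GFP, eGFP in the labels), which an antibody against GFP precipitated. Chromatin was sheared by Bioruptor sonication to 200 to 800 bp. Both libraries carry the same transgene, so no untagged or untreated group was compared. The control library was not analysed. The labels do not say which promoter drives the transgene, and they cite a different protocol document for each library. Whole embryos of a 16-hour window mix all cell types and stages, so binding in a few cells and weak binding in many cannot be told apart.

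The deposited lists hold 28750 candidate regions from both libraries pooled (peaks together with background, in the authors' naming), 1872 reproducible peaks, and 30000 regions for each replicate. Each region has a signal, the enrichment the authors deposited, on a scale the sources do not name, and a rank by signal within its list. The 1872 peaks were the strongest candidates, with a lowest signal of 53.8 and a median of 77.9, and the median over all candidates was 21.0. Read depth is unknown, so no counting error can be given for a signal, and signals are compared within a list only.

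The segmentation genes act in tiers. Maternal gene products set the head-to-tail axis, gap genes read them in broad bands, pair-rule genes turn the bands into stripes, and segment polarity genes keep the borders through the Hedgehog and Wingless signals. The homeotic genes, which lie in the Antennapedia and Bithorax complexes, then give each segment its character, and many genes of these tiers are known for enhancers far from their start sites. CG31388 belongs to the fly's family of zinc finger proteins with a zinc-finger-associated domain.

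The sequences printed are a selection from under the peaks between or inside the genes, with those at and next to *bcd*, the gene that gave the list its peak at an own promoter. The windows of the *ptc*, *kni* and *ems* peaks, of the weaker *slp1* and *slp2* peak and of the peaks at promoters of other genes are not printed. Each is the summit base with 50 bp on either side, read 5′ to 3′ on the plus strand of the RefSeq dm6 genome. Capitals mark matches on either strand to the motifs searched, which were GAGAG (GAGA factor), CAGGTAG (Zelda), GCCAT (the Pho core) and TATCGATA (Dref and BEAF-32), with GGTCACACT, the M1BP motif, added after the sequences were seen. GAGAG reads CTCTC, and CAGGTAG reads CTACCTG, where it lies on the minus strand. The motifs do not overlap one another in these windows.
slp1 and slp2 intergenic peak, 2L:3832452-3832552: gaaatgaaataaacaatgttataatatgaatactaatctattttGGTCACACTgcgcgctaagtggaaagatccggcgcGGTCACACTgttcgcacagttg
abd-A flank peak, 3R:16798827-16798927: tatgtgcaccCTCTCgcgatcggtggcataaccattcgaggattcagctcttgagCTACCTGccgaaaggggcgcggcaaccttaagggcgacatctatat
Antp intron, stronger peak, 3R:6912434-6912534: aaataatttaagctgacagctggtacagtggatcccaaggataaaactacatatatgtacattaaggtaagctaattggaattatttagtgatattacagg
Antp intron, weaker peak, 3R:6914521-6914621: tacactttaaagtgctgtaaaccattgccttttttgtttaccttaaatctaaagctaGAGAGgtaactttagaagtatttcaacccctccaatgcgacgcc
otd flank peak, X:8656660-8656760: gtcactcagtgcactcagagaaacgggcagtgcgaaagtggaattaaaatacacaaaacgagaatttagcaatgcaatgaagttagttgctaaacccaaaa
odd flank peak, 2L:3588444-3588544: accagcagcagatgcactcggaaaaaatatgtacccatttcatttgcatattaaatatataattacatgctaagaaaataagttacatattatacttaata
Abd-B intron peak, 3R:16958183-16958283: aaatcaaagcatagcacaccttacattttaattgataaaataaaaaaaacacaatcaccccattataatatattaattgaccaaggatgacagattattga
bcd promoter peak, 3R:6759593-6759693: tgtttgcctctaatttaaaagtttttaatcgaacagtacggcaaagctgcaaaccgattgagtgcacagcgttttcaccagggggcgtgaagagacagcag
bcd upstream peak, 3R:6760881-6760981: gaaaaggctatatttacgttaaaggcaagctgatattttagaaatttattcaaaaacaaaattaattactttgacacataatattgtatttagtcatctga

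The *slp1* and *slp2* window held GGTCACACT at 2 places on the plus strand. The *abd-A* window held GAGAG and CAGGTAG, and the weaker of the *Antp* windows held GAGAG. None of the 5 motifs was found in the other printed windows. GC content was 40.6% under the *slp1* and *slp2* summit, 54.5% under that of *abd-A*, 31.7% and 37.6% in the *Antp* intron, and 45.5% at the *bcd* promoter. The median over all 1872 peaks was 31.7%, and that over all candidates was 40.6%.

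A peak at the gene's own promoter was found at 1 of the 35 genes, *bcd* (2.86%, 95% exact interval 0.0723% to 14.9%), and the share over all protein-coding genes was 10.1%. A candidate region of any strength lay at the promoter of 13 genes (37.1%, interval 21.5% to 55.1%), against 46.5% of all coding genes. Both intervals hold the share over all genes. Intervals here cover counting error only, and treat neighbouring genes that share regions as separate.

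Gene bodies outside the promoter windows held a candidate in 21 of the 35 genes (60.0%, interval 42.1% to 76.1%), where 36.0% of all coding genes had one, a share outside that interval. The patterning genes are longer, with a median of 4.78 kb against 2.17 kb over all coding genes, and the part of length in that count was not tested. A peak in the body was found in 2 genes, *Antp* and *Abd-B* (5.71%, interval 0.7% to 19.2%, all coding genes 3.74%).

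Flanks held a candidate for all 35 genes, as for 98.2% of coding genes, and a peak for 16 (45.7%, interval 28.8% to 63.4%, all coding genes 49.8%). In any of these places, 17 genes had a peak (48.6%, interval 31.4% to 66.0%, all coding genes 54.5%). For 5 of the 17, *nos*, *hb*, *btd*, *eve* and *prd*, every such peak sat at the promoter of another gene. The other 12 had at least 1 peak that did not.

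Since neighbouring genes share flanks, the 564 pairs of a gene and a candidate came down to 529 distinct regions, and the 24 pairs with a peak to 20 distinct peaks. Distinct means separate entries of the list. Some entries overlap one another, as the promoter candidates of *h* do, and the counts and intervals treat them as separate. Of the 529, 15 lay at the genes' own promoters, 81 at promoters of other genes and 433 more than 500 bp from every annotated TSS, called distal. The share of candidates that were peaks was 1 of 15 at own promoters (6.67%, interval 0.169% to 31.9%) and 13 of 433 at distal places (3.002%, interval 1.61% to 5.08%). At promoters of other genes it was 6 of 81 (7.41%, interval 2.77% to 15.4%). Over all candidates it was 6.51%, with 13.6% within 500 bp of any TSS and 3.92% elsewhere, and the intervals at own promoters, other promoters and distal places hold the matching share.

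**Figure D1:**
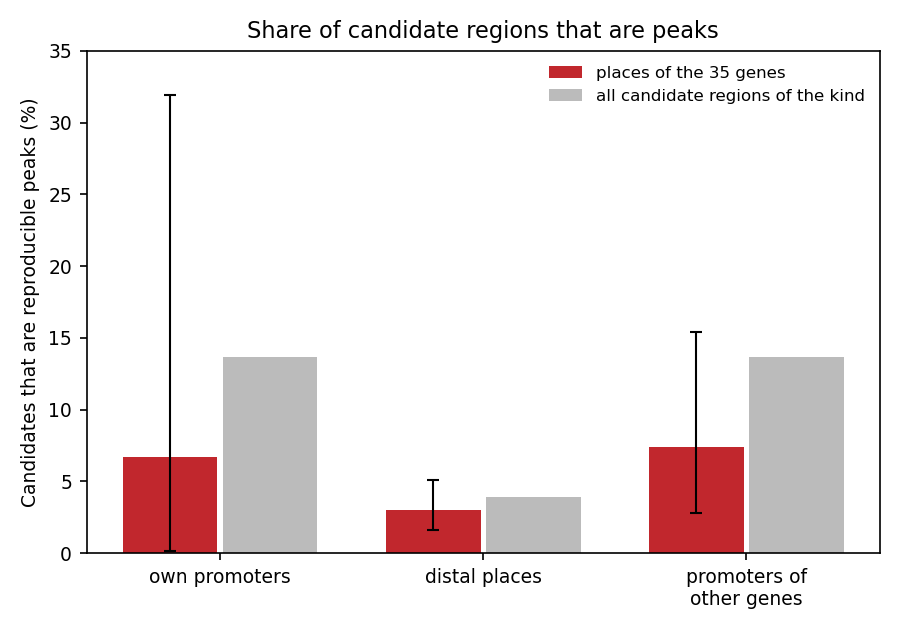
Percent of candidate regions that are reproducible peaks (y axis) at the own promoters of the 35 genes, at distal places and at promoters of other genes (red), beside all candidates of the same kind (grey). Error bars are 95% exact intervals on the red shares of 15, 433 and 81 regions, and each of them takes in its grey bar.

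Each tier of the cascade had at least 1 gene with a peak in some place. Of all coding genes, taken singly, 54.5% had one. By that share alone, most groups of 3 to 9 genes would hold such a gene. Of all candidates 6.51% were peaks, the share to set beside those of the tiers. Peaks numbered 3 for the 3 maternal genes (5.88% of their distinct candidates), 2 for the 6 gap genes (2.47%) and 3 for the 3 head gap genes (7.14%). The 9 pair-rule genes had 5 peaks (4.95% of candidates), the 6 segment polarity genes 2 (2.17%) and the 8 homeotic genes 7 (3.93%). The peaks at and upstream of *bcd* count for both the maternal and the homeotic genes, for the latter through the flank of *pb*. Median signals of the candidates lay close together, from 20.02 for the head gap genes to 22.6 for the maternal genes. The tiers differed more in the strongest candidate, from 65.3 for the gap genes to 298 for the pair-rule genes. For the maternal, gap, head gap and pair-rule genes that strongest candidate lay at the promoter of another gene. For the segment polarity and homeotic genes it was distal.

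**Figure D2:**
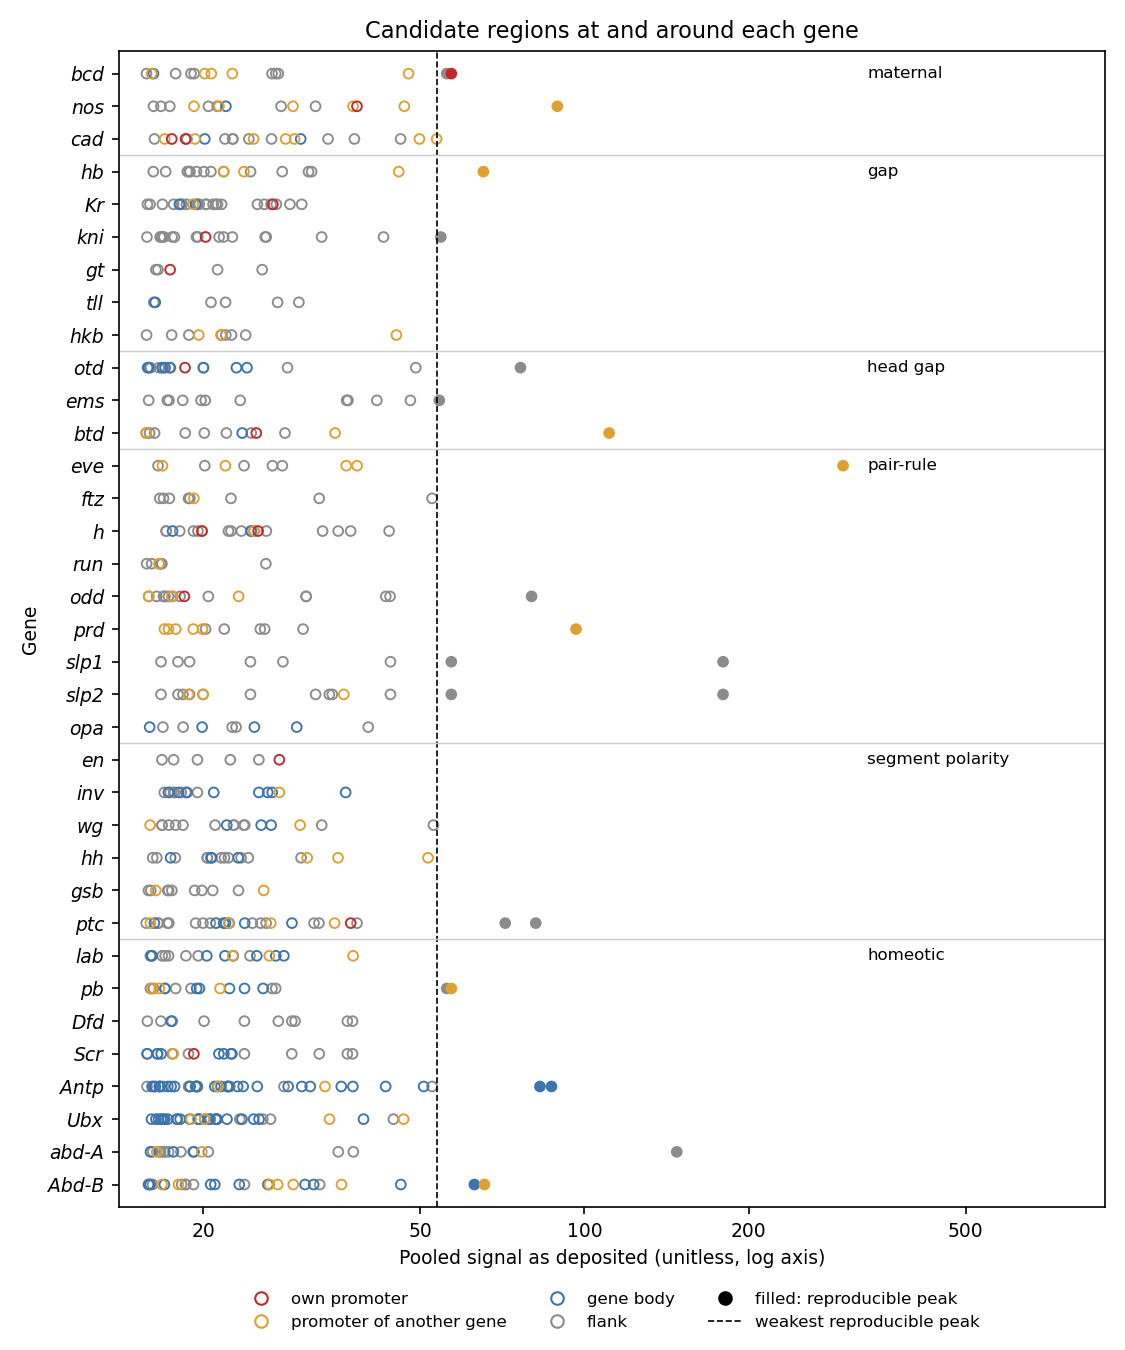
Pooled signal, as deposited and on a log axis, of every candidate region (circles) at and around each of the 35 genes, grouped by tier. Filled circles are reproducible peaks, the dashed line is the weakest of all 1872 peaks, at 53.8, and colour gives the place. Filled red appears once, at *bcd*, and a region shared by neighbours is drawn for each.

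Among the maternal genes, *bcd*, the homeodomain protein whose gradient sets the anterior pattern, had its promoter peak 177 bp upstream of its start site (3R:6759445-6759840), with a pooled signal of 57.0 and rank 1697. In replicate 4 this region had a signal of 51.8 and rank 906, and in replicate 2 no region covered the summit. The 1872 reproducible peaks are the 1872 strongest pooled candidates. This region is therefore among them by its pooled rank, and a region in each replicate list was not required. A further peak lay 1465 bp upstream (3R:6760733-6761128, pooled signal 55.9, rank 1741), with a signal of 26.2 and rank 1172 in replicate 2 and 32.3 and rank 2249 in replicate 4. Both are near the weakest peak of the whole list, and both are also counted in the flank of the neighbouring *pb*.

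*nos*, which encodes an RNA-binding repressor of translation at the posterior pole, had a promoter candidate 249 bp upstream of its start with a pooled signal of 38.3 (rank 3398; 4113 in replicate 2 and 3027 in replicate 4). That summit lies 28 bp from the start site of CG11779, in its 5′ UTR, so the promoters of the genes cannot be told apart. The *nos* flank peak (3R:19162159-19162554, pooled signal 89.2, rank 704) was 57 bp from the start of CG42359, and had signals of 25.9 and 60.9 in replicates 2 and 4. *cad*, a homeodomain gene of the posterior embryo, had 2 weak promoter candidates of 18.6 and 17.5, the first in neither replicate list and the second in that of replicate 4 only, at rank 16747. No peak lay in any of its places.

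A flank peak was found for 2 of the 6 gap genes, and for 49.8% of all coding genes. *hb*, a zinc finger repressor and activator of the anterior embryo, had no candidate at its promoter or in its body, and its flank peak (3R:8676601-8676996, 65.3, rank 1337) lay 116 bp from the start of CG11755, with signals of 22.2 and 38.5 in replicates 2 and 4. For *kni*, which encodes a protein of the nuclear receptor family and acts in the abdomen, an intergenic peak 15283 bp upstream (3L:20710463-20710858) had a signal of 54.5, with 15.2 (rank 3433) in replicate 2 and 37.8 (rank 1685) in replicate 4. Its promoter candidate, 33 bp upstream, had 20.2. The remaining gap genes, *Kr*, *gt*, *tll* and *hkb*, had no peak.

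The *Kr* promoter, that of the zinc finger gene of the central embryo, had a candidate with a pooled signal of 26.8, which ranked 3107 in replicate 2 and 19166 in replicate 4. *gt*, a leucine zipper repressor, had a candidate of 17.4 in its coding sequence, 278 bp from the start, found in neither replicate list. Neither *tll* nor *hkb*, which act at the termini, had a promoter candidate, and their strongest flank signals were 29.96 and 45.2, the latter 114 bp from the start of CG9776. All of these lie under the weakest peak.

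The head gap genes, which pattern the anterior head, each had a peak in the flank. The homeodomain gene *otd* (*oc* in the annotation) had an intergenic peak 6029 bp upstream (X:8656512-8656907, 76.4, rank 976), with signals of 24.3 and 49.0 in replicates 2 and 4, and a promoter candidate of 18.5. *ems*, also a homeodomain gene, had one 13995 bp downstream of its start (3R:13915650-13916045, 54.2, rank 1850), ranked 1265 in replicate 2 and 3657 in replicate 4, and no candidate at its promoter. For *btd*, an Sp-like zinc finger gene, the peak (X:9687552-9687947, 111, rank 438) was 439 bp from the start of lncRNA:CR42657, with signals of 58.8 and 53.7 in replicates 2 and 4, and the promoter candidate had 25.0. Among these the *btd* peak was the strongest, and it belongs to the promoter window of a non-coding gene.

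Pair-rule genes held the strongest peaks of the set, outside their own transcripts. In the *eve* flank, 19425 bp upstream of this homeodomain gene, a peak with a signal of 298 ranked 38 of all (2R:9959758-9960031), with 105 (rank 47) in replicate 2 and 192 (rank 39) in replicate 4. It lay 162 bp from the start of *Pdrg1*, and *eve* itself had no candidate at its promoter or in its body.

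The forkhead genes *slp1* and *slp2* are neighbours that share 2 intergenic peaks. The stronger (2L:3832304-3832699, 179.6, rank 140) sits between them, 6827 bp downstream of the *slp1* start and 4338 bp upstream of that of *slp2*. Its signal was 62.1 (rank 165) in replicate 2 and 116 (rank 133) in replicate 4, so it was high in both. The weaker (2L:3827694-3828089, 57.0, rank 1698) is 2217 bp downstream of the *slp1* start and stood higher in replicate 4, with a rank of 1269 there and of 8221 in replicate 2. Neither gene had a candidate at its own promoter or in its body.

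*odd*, a zinc finger repressor, had a peak 18262 bp downstream of its start (2L:3588296-3588691, 80.0, rank 894) in an exon of lncRNA:CR43823, with 31.1 in replicate 2 and 41.8 in replicate 4, and a promoter candidate of 18.5. For *prd*, a paired and homeodomain gene, the peak 17726 bp upstream (2L:12103355-12103750, 96.5, rank 606) was 198 bp from the start of *ThrRS*, the threonyl-tRNA synthetase gene, with 32.1 and 60.8 in replicates 2 and 4. The other pair-rule genes, *ftz*, *h*, *run* and *opa*, had no peak. *h* (*hry* in the annotation), a basic helix-loop-helix repressor, had 2 promoter candidates of 25.2 and 19.9, neither of them in replicate 2, and the first ranked 4213 in replicate 4. Their strongest signals were 52.6 for the homeodomain gene *ftz*, 43.8 for *h*, 26.1 for the Runt-domain gene *run* and 40.1 for the zinc finger gene *opa*, all of them in flanks.

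Of the segment polarity genes, *ptc*, the Hedgehog receptor, was the one with peaks. One lay in intergenic sequence 5337 bp upstream (2R:8644114-8644509, 81.4, rank 863), with signals of 32.8 and 49.9 in replicates 2 and 4. The other lay 19671 bp downstream of the start (2R:8669122-8669517, 71.6, rank 1125), in an intron of *Acsl*, which encodes a long-chain acyl-CoA synthetase, with 27.6 and 45.2. The *ptc* promoter candidate had 37.3, and ranked 10666 in replicate 2 and 2922 in replicate 4.

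The ligand genes *wg* and *hh* came close without a peak. The strongest *wg* region, 11067 bp upstream, had a signal of 52.9 and pooled rank 1919, and that of *hh* had 51.7 and rank 1987, at the promoter of *Cow*, which encodes a secreted binding protein of Wingless. The homeodomain gene *en* had a promoter candidate of 27.6, ranked 24418 in replicate 2 and 6957 in replicate 4, and it was the strongest region of that gene. Its neighbour and paralogue *inv* reached 36.5 in an intron, and the paired-domain gene *gsb* reached 25.8 in its flank.

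All 8 homeotic genes had a candidate in the body, and *Scr*, which acts in the labial and first thoracic segments, was the one with a candidate at a promoter (19.2; rank 9379 in replicate 2, absent from replicate 4). *Antp*, the homeodomain gene of the thorax, spans 103 kb and had 30 body candidates. Of these, 2 were peaks, in the same intron region. The first (3R:6912286-6912681, 87.0, rank 741) had signals of 33.3 and 52.1 in replicates 2 and 4, and the second (3R:6914373-6914768, 82.9, rank 835) had 42.3 and 37.4. They lie 20356 and 18269 bp downstream of the nearest *Antp* start, and both were among the 1872 strongest regions of each replicate. A further *Antp* intron candidate fell just short, at 50.7.

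In the Bithorax complex, *abd-A*, which acts in the anterior abdomen, had the strongest homeotic peak beyond its 3′ end (3R:16798679-16799074, 147.7, rank 219), 29228 bp downstream of the nearest own start and 1723 bp from that of lncRNA:CR45750. It had 72.6 (rank 123) in replicate 2 and 75.6 (rank 388) in replicate 4. *Abd-B*, the gene of the posterior abdomen, had an intron peak 2048 bp downstream of a start (3R:16958035-16958430, 62.8, rank 1438), with 26.4 and 36.8 in replicates 2 and 4. Its flank peak (3R:16986443-16986838, 65.6, rank 1320), in the 5′ UTR of CG18622 and 209 bp from its start, stood at rank 10920 in replicate 2 and 718 in replicate 4. Thus the libraries ranked the intron peak alike and the flank peak far apart.

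*Ubx*, the gene of the posterior thorax and first abdominal segment, spans 77.8 kb with 24 body candidates and no peak, and its strongest signals were 39.4 in the body and 46.6 in the flank, the latter 220 bp from the start of CG10324. The head genes *lab* and *Dfd* had no peak either, with strongest signals of 37.7 and 37.6, and *pb* had those at *bcd* and no other. From *lab* to *Antp* the Antennapedia complex (338 kb) held 93 candidates and 4 peaks, or 27.5 and 1.18 per 100 kb. From *Ubx* to *Abd-B* the Bithorax complex (316 kb) held 87 candidates and 3 peaks, or 27.6 and 0.951 per 100 kb. One of those 3 (3R:16869186-16869581, 72.7, rank 1090) lies outside the 20 kb flanks, 13042 bp from the start of mir-iab-8. Over the 6 arms the densities were 21.5 candidates and 1.40 peaks per 100 kb, so both complexes had more candidates per length than the arms. With 4 and 3 peaks, the peak densities of the complexes are imprecise.

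Set side by side, promoter and distal candidates of the patterning genes had close medians, 20.2 (17.4 to 57.0, n = 15) and 20.4 (15.7 to 179.6, n = 433). The promoter median was lower by 0.236, and the sign of that difference turned with the promoter window and with the library. It was 4.78 with a window of 250 bp, -0.748 in replicate 2 and 1.25 in replicate 4. The replicate values are in the signals of each list, so only their signs can be set beside the pooled one. Over all candidates the medians were 24.0 within 500 bp of a TSS and 20.3 elsewhere. No ordering of promoter over distal places was therefore detectable here for these genes.

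Within genes, 13 had both an own promoter candidate and a distal one, and the strongest distal signal was the higher in 10 of them (76.9%). Among all coding genes with both it was higher in 3962 of 6450 (61.4%). A distal place is much longer than a promoter window and had more candidates to draw from, for the patterning genes as for all genes. The gap was widest for *odd*, 18.5 at the promoter against 80.0, for *otd*, 18.5 against 76.4, and for *ptc*, 37.3 against 81.4. A distal region can lie nearer the start of another gene. That of *odd* lies 1025 bp from the start of lncRNA:TS2, and that of *kni* 3439 bp from the start of CG34260. The exceptions were *bcd* (57.0 against 55.9), *nos* (38.3 against 32.1) and *en* (27.6 against 25.3).

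**Figure D3:**
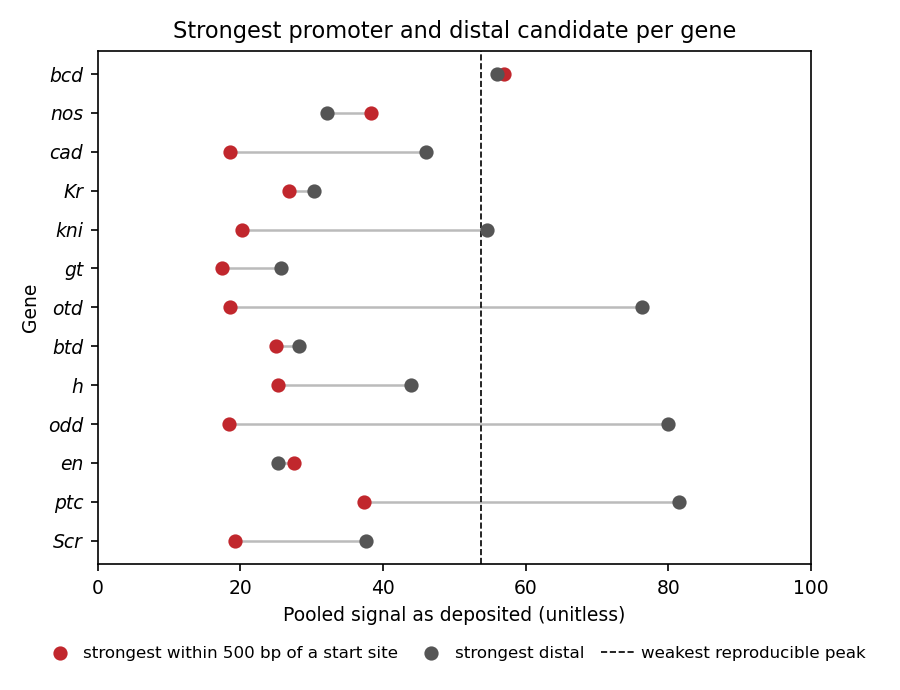
Strongest own promoter candidate (red) and strongest distal candidate (grey) of the 13 genes that have both, as pooled signal on a linear axis from 0, joined by a line. The dashed line is the weakest reproducible peak, 53.8; red lies right of grey for *bcd*, *nos* and *en*.

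The strongest promoter candidate had a median of 25.0 over those 13 genes, against 28.8 over the 6482 coding genes with one. The strongest distal candidate had a median of 40.1 over all 35 genes, from 23.2 to 179.6, against 32.01 over 13604 coding genes. The patterning genes are longer, and their places held 29.9 candidates per 100 kb against 21.5 over the 6 arms. A strongest one was thus taken from more candidates, and the part of this was not tested. Medians of all distal candidates were 20.4 for these genes and 20.3 over the whole list. Distal peaks, 13 in all, had a median signal of 76.4, close to the 74.8 of all 825 distal peaks. By annotation 8 of the 13 were intergenic, 4 lay in introns and 1 in a non-coding exon, and none lay in coding sequence or a UTR.

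Near the threshold the line between a peak and other candidates was thin. The 5 weakest peaks had signals from 54.2 to 57.0, the *ems*, *kni*, *bcd* and weaker *slp1* and *slp2* peaks. Just outside were 5 regions over 50, led by the *cad* flank region at the promoter of the proteasome maturation gene *Pomp* (53.6, rank 1878) and followed by those of *wg*, *ftz* with *Antp*, *hh* and *Antp*.

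Most peaks were among the strongest regions of both libraries. Peaks are the strongest candidates of the list pooled from these same libraries, so high ranks in each are partly built in. Of the 20 peaks, 16 were in the 1872 strongest regions of replicate 2, 18 in those of replicate 4, and 14 in both (70%), against 68.0% of all 1872 peaks. Of the exceptions, the *bcd* promoter peak was absent from replicate 2. The weaker *slp1* and *slp2* peak and the *kni* and *Abd-B* flank peaks ranked 8221, 3433 and 10920 there. The *ems* peak and the *bcd* upstream peak ranked 3657 and 2249 in replicate 4. Each replicate list holds 30000 regions. Candidates of any strength were found in both replicate lists for 7 of 15 own promoter regions (46.7%, all promoter candidates 45.8%) and 134 of 433 distal ones (30.9%, all distal candidates 29.2%).

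Taken alone, replicate 2 put none of its 1872 strongest regions at a promoter of the 35 genes and replicate 4 put 1 there, at *bcd*, a mean of 0.5 ± 0.707 (SD, n = 2) genes. Over all coding genes the shares were 9.88% and 9.91%. Flanks held such a region for 16 genes in replicate 2 and 15 in replicate 4, a mean of 15.5 ± 0.707 (SD, n = 2), where 49.8% and 49.5% of all coding genes had one. Bodies did so for 3 genes in each, *Antp* and *Abd-B* in both, with *Ubx* in replicate 2 and *lab* in replicate 4, and for 3.69% and 3.81% of all coding genes. The *Ubx* intron region ranked 1687 in replicate 2 and 6995 in replicate 4. That of *lab* ranked 1806 in replicate 4 and was absent from replicate 2.

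**Figure D4:**
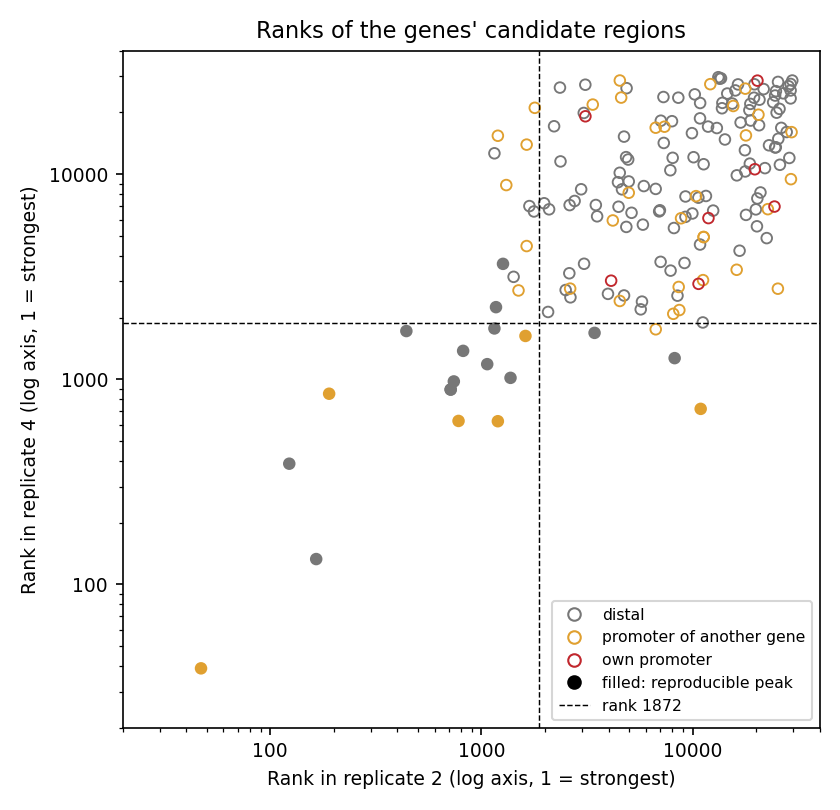
Rank of each candidate region around the 35 genes in replicate 2 (x axis) and replicate 4 (y axis), both log axes with 1 the strongest, for regions found in both lists; filled circles are reproducible peaks and dashed lines mark rank 1872. Peaks with strong pooled signals lie at the lower left, led by the *eve* flank peak at ranks 47 and 39, and own promoter candidates (red) lie right of and above the lines.

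Sequence features around the summits were counted as presence in that window of 50 bp on either side. GAGAG was found in 4 of the 13 distal peaks (30.8%), those of *kni*, *ems*, *Antp* and *abd-A*, where 10.7% of all distal peaks and 11.4% of all candidates held it. Among the 433 distal candidates of these genes the share was 12.0%. CAGGTAG was found in 1 of the 13, that of *abd-A*, against 0.970% of all distal peaks, and GCCAT in none of the 13, against 12.5%. TATCGATA was in none of the 13 and in none of the 825. Of the 15 own promoter candidates, 4 held GAGAG (26.7%), against 11.8% of all promoter candidates. GCCAT was in 3 of these 15, and CAGGTAG and TATCGATA were in 1 each. These are matches of letters in small sets, and no binding of the named factors was measured.

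Own promoter candidates had a median GC content of 54.5% (n = 15), and all promoter candidates had 38.6%. The 13 distal peaks had a median of 31.7%, as all distal peaks did. GGTCACACT, found in the *slp1* and *slp2* peak printed with the sequences, was in no other of the 825 distal peaks. It was in 8 of all 1872 peaks (0.427%) and in 94 of the 7681 promoter candidates (1.22%), and was chosen after that sequence was seen.

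Another 49 genes of the same pathways were counted in the same way. Own promoter candidates were found for 38 of them (77.6%, interval 63.4% to 88.2%), above the 46.5% of all coding genes, and own promoter peaks for 4 (8.16%, interval 2.27% to 19.6%), near the 10.1% of all coding genes. Those 4 were *gro*, the co-repressor used by many segmentation proteins, with peaks of 146.8 and 58.2, the kinase gene *sgg* of the Wingless pathway with 107.3, the repressor gene *cic* with 63.8, and *nkd*, an inhibitor of Wingless signalling, with 54.8. Peaks in the body were found for 6 genes (12.2%, interval 4.63% to 24.8%), against 3.74% of all coding genes, and in the flank for 24 (49.0%), near the 49.8% of all coding genes. The related genes are longer, with a median of 8.18 kb, and the part of length in the body count was not tested. A promoter takes in every annotated start site of a gene, and the part of their number in the promoter count was not tested. By class, promoter peaks fell to 2 of the 8 gap-like, head and co-repressor genes and 2 of the 22 Hedgehog, Wingless and segment polarity genes. None was found at the 11 maternal and terminal genes, the 3 pair-rule related genes or the 5 homeotic cofactors and Antennapedia complex genes.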

How the data were processed

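The authors deposited narrowPeak lists on dm6 for each replicate, for the pooled libraries and for the reproducible set, which was made from these by the irreproducible discovery rate, per the deposited read-me files. The deposited signal is an enrichment of unstated scale. The deposited −log10 q-value and the dm3 lists were not used. For the aligner, the peak caller and the threshold, values are not given in the sources.

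Genes came from Ensembl release 115 annotation of the same assembly, without transposable elements (18164 genes, 13945 protein-coding). The symbols *nos*, *otd* and *h*, 3 in all, were matched to *nanos*, *oc* and *hry* through RefSeq synonyms. A region was assigned by its summit, and matched to a replicate when the summit lay inside a region there. Sequences came from the RefSeq dm6 genome. Python 3.11.15, pandas 2.3.3, numpy 2.4.6 and scipy 1.17.1 were used, and assignment was tested on simulated data. With 1 group of 2 libraries no p-value was computed. Shares have 95% exact (Clopper-Pearson) intervals, which cover counting error only. The labels call the libraries biological replicates.

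Genes, lists and motifs were chosen with earlier results of these data known. All 35 genes are accounted for, with full values for those with a peak, with a promoter candidate, or among the 3 strongest distal regions of body or flank. Alternatives were either replicate by itself, a window of 250 or 1000 bp, flanks of 10 and 50 kb, the stronger 936 peaks, nearest-TSS assignment, other genes' promoters treated otherwise, and 50% reciprocal overlap.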

Additional observations from a re-analysis of the deposited data

How the results depend on the processing

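Of 54 alternative values over 11 results, 32 stayed within the range set for no change and 22 moved. The count of genes with a peak at the own promoter (1) was 0 with the stronger 936 peaks and from 0 to 1 with either replicate left out. Genes with a promoter candidate (13) rose to 23 with a window of 1000 bp, and genes with a body peak (2) came to 1 with the stronger peaks. Genes with a flank peak (16) numbered 8 with flanks of 10 kb, 26 with 50 kb, 9 with the stronger peaks, 6 where the nearest TSS had to be the gene's own, and 10 with other genes' promoters left out. Distinct peaks (20) numbered 13 with 10 kb, 55 with 50 kb and 10 with the stronger peaks. The promoter minus distal median (-0.236) was 4.78 with a window of 250 bp and -0.748 to 1.25 with a replicate left out. The percent of own promoter candidates that are peaks (6.67) was 0 with the stronger peaks and 0 to 7.14 with a replicate left out. The percent of distal candidates that are peaks (3.002) was 3.45 with a window of 1000 bp, 3.36 with 10 kb, 4.15 with 50 kb, 1.39 with the stronger peaks, 3.70 with other promoters kept as distal, and 2.76 to 2.998 with a replicate left out. The cause was not tested beyond what each setting adds or removes by construction.

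With a replicate left out, the ranges of the results not yet given were 13 to 15 genes with a promoter candidate, 22 to 24 with a body candidate, 3 with a body peak, 35 with a flank candidate, 15 to 16 with a flank peak, and 20 to 24 distinct peaks. The 181 distinct candidates found in both replicates stayed at 181 with 50% reciprocal overlap. No paired analysis was possible because both libraries form 1 group. Read depth is unknown, and places follow annotated start sites, so a start missing from the annotation would count as distal.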

Other observations

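Outside the promoters, the related patterning genes had body peaks at *fz*, *cic*, *boi*, *nkd*, *pum* and *cnc*. These are 12.2% of the 49, where the share over all coding genes is 3.74%. The strongest lay in the body of *fz*, a Wingless receptor gene (3L:14303862-14304257, signal 174, rank 154), 29717 bp from the nearest *fz* start, and ranked 198 in replicate 2 and 134 in replicate 4. *fz* had further body peaks of 65.7 and 55.6. *cic* had body peaks of 83.0 and 77.9 beside its promoter peak, and the second of these ranked 8513 in replicate 2 and 451 in replicate 4. The body peaks of *boi*, *nkd*, *pum* and *cnc* had 67.1, 63.0, 61.7 and 55.3. These genes were named after their values were seen.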
